A study of Mus musculus with 12 samples.

Results

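The fatty acid uptake and binding genes are 10 mouse genes that bring long-chain fatty acids into cells, carry them inside cells, or release and take up fat from lipoproteins. They are Cd36, Slc27a1, Slc27a2, Slc27a4, Fabp1, Fabp2, Fabp4, Fabp5, Lpl and Vldlr. Their members were every probe set that the array's annotation gives to 1 of these symbols alone, 24 of 45037 probe sets and 10 of 18193 named genes. The main probe set of a gene is the one with the highest mean signal over the arrays, and 21 of the 24 probe sets, with at least 1 for each gene, were bright enough to be tested.

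Liver RNA of C57BL/6J mice aged 30 weeks was hybridised to 12 Affymetrix mouse genome arrays, 3 in each of 4 groups, the control and LDC females and the control and LDC males. LDC stands for low-dose cadmium, 100 nM cadmium chloride in the drinking water, and the control mice drank water alone. The LDC dams received it from 1 week before mating, and their offspring, the mice measured here, went on drinking it after weaning. The 3 arrays of a group are biological replicates by their labels. Neither labels nor methods say which mice shared a litter or a cage, so the p-values treat these mice as if they were independent.

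The arrays were of similar brightness, with a median signal of 95.1 to 110.3 and the same trimmed mean on every array. Across all probe sets, log2 signals correlated at r = 0.858 to 0.883 within groups and 0.842 to 0.889 between groups. Xist and the Y-linked genes matched the labelled sex on 12 of 12 arrays. Hepatocyte markers were bright throughout, with the summed signal of 5 markers between 237600 and 290300. Of 5 adipocyte markers, Adipoq, Lep, Retn and Adig were below the test's filter and Lipe alone was above it, and the sum of the 5 ranged from 295.9 to 686.8 over the arrays. Macrophage, neutrophil and stellate cell markers moved between the groups and are given beside the genes they moved with. In whole liver, fewer cells of a type and less RNA per cell cannot be told apart.

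Long-chain fatty acids reach the liver bound to albumin or within lipoproteins. CD36 is a scavenger receptor that promotes their entry at the plasma membrane, and the SLC27 proteins (FATP family) couple uptake to the attachment of coenzyme A. FABP proteins are small soluble carriers, of which FABP1 is the main form in hepatocytes, FABP2 that of the small intestine, FABP4 that of adipocytes and macrophages, and FABP5 the epidermal form, also made by macrophages and endothelial cells. LPL cleaves the triglyceride of circulating lipoproteins, and VLDLR binds and internalises triglyceride-rich particles. In adult liver Lpl and Vldlr are known for low expression, and several genes of hepatic lipid uptake are known to differ between male and female rodents.

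To show where the genes start, the 250 bases before the RefSeq transcription start (assembly GRCm38.p6) are printed for the 3 members whose levels differed between the sexes and that have an entry, Cd36, Slc27a2 and Vldlr, and for Fabp1, a hepatocyte gene with little spread between groups. The windows lie at chr5:17835897-17836146 on the minus strand for Cd36, chr2:126552774-126553023 on the plus strand for Slc27a2, chr19:27216234-27216483 on the plus strand for Vldlr and chr6:71199629-71199878 on the plus strand for Fabp1. They read 5′ to 3′ on the strand of the gene, and capitals mark AGGTCA or its reverse complement TGACCT, the half-site of many nuclear receptors.
Cd36: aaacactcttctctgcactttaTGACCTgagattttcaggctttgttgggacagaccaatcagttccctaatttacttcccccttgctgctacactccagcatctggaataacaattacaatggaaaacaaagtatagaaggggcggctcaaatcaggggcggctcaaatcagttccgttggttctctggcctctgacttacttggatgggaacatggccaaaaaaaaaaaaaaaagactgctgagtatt
Slc27a2: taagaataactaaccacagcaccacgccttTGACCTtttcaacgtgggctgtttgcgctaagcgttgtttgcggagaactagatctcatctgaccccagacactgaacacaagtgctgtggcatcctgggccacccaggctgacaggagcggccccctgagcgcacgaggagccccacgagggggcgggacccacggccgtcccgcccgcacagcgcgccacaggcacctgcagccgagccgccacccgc
Vldlr: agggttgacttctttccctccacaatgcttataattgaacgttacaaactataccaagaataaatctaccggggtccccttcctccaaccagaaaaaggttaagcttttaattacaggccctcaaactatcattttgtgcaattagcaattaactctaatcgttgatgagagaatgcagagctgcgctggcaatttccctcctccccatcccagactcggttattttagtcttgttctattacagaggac
Fabp1: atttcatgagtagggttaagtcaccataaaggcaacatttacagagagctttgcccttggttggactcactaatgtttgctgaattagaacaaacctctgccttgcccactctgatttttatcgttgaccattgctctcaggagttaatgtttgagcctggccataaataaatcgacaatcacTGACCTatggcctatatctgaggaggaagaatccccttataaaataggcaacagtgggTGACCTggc

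AGGTCA was found on either strand in 14% of the 32851 mouse promoters of the same length. Cd36 had 1 match beginning 228 bases before the start and Slc27a2 had 1 at 220 bases, while Fabp1 had 2, at 67 and 9 bases. No match lay in any window of Vldlr, Slc27a1, Slc27a4 or Fabp2, the other members with an entry. The palindrome TTCNNNGAA, which STAT5 recognises and which 7.02% of promoters held, was in none of the windows of the 7 members with an entry. GGGCGG, the GC box, was in 32.7% of promoters and occurred 2 times each in Cd36, Slc27a2 and Slc27a4 and also in further windows of Slc27a1 and Vldlr, and TATAAA, in 12.4% of promoters, occurred in Fabp1 at 30 bases. Both strands were searched, no match overlapped one of another motif, and a match is a description of the sequence alone.

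The first question was whether LDC moved these genes in either sex. In no contrast of LDC against control did a member reach an adjusted p under 0.05 with limma: 0 of 10 genes in males, where 0.278% of all 27022 tested probe sets were called, and 0 of 10 in females, where 0.122% were. On their main probe sets, Cd36 and Fabp5 were the 2 genes with an unadjusted p under 0.05 in males, and the same 2 in females. Among the other probe sets, 1423166_at of Cd36, 1416022_at of Fabp5 and 1417900_a_at of Vldlr were under that level in males. In females 1416022_at of Fabp5 alone was. Averaged over the sexes, 0 of 10 genes passed against 0.0444% of all probe sets. The main probe sets of Cd36 and Fabp5 had an unadjusted p under 0.05. The other probe sets under that level were 1423166_at of Cd36, 1416022_at of Fabp5, 1431056_a_at of Lpl and 1417900_a_at of Vldlr. The effects of the sexes differed for 0 of 10 genes, with 0.178% of all probe sets called and 0 of the 10 at an unadjusted p under 0.05. The median log2 fold change of the main probe sets was -0.07 in males and 0.11 in females, beside 0.00 and 0.01 over all probe sets tested.

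Signals of 5 genes did not overlap between LDC and control males (Cd36, Fabp2, Fabp5, Slc27a1 and Slc27a4), where 16.5% of all probe sets did not. In females Fabp5 alone of the 10 did not overlap, beside 13.9% of all probe sets.

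The second question was how the sexes differed. Between control males and control females 4 of 10 genes were called, with 7.73% of all probe sets called. Vldlr, Fabp5 and Cd36 were lower in males and Slc27a2 was higher. Between LDC males and LDC females 2 of 10 were called, Vldlr and Fabp5, both lower in males, with 6.29% of all probe sets called. By probe set, 7 of 21 were called in control mice, 6 of them lower in males, and 4 of 21 in LDC mice, all 4 lower in males. The main probe sets of 5 genes did not overlap between control males and females (Cd36, Fabp5, Slc27a2, Slc27a4 and Vldlr; 24.5% of all probe sets), and those of 3 genes between LDC males and females (Fabp5, Slc27a2 and Vldlr; 26.9%). A call in 1 of these comparisons and none in the other does not show that they differ: the test of that difference is the contrast between the LDC effects of the sexes, which called 0 members.

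**Figure D1:**
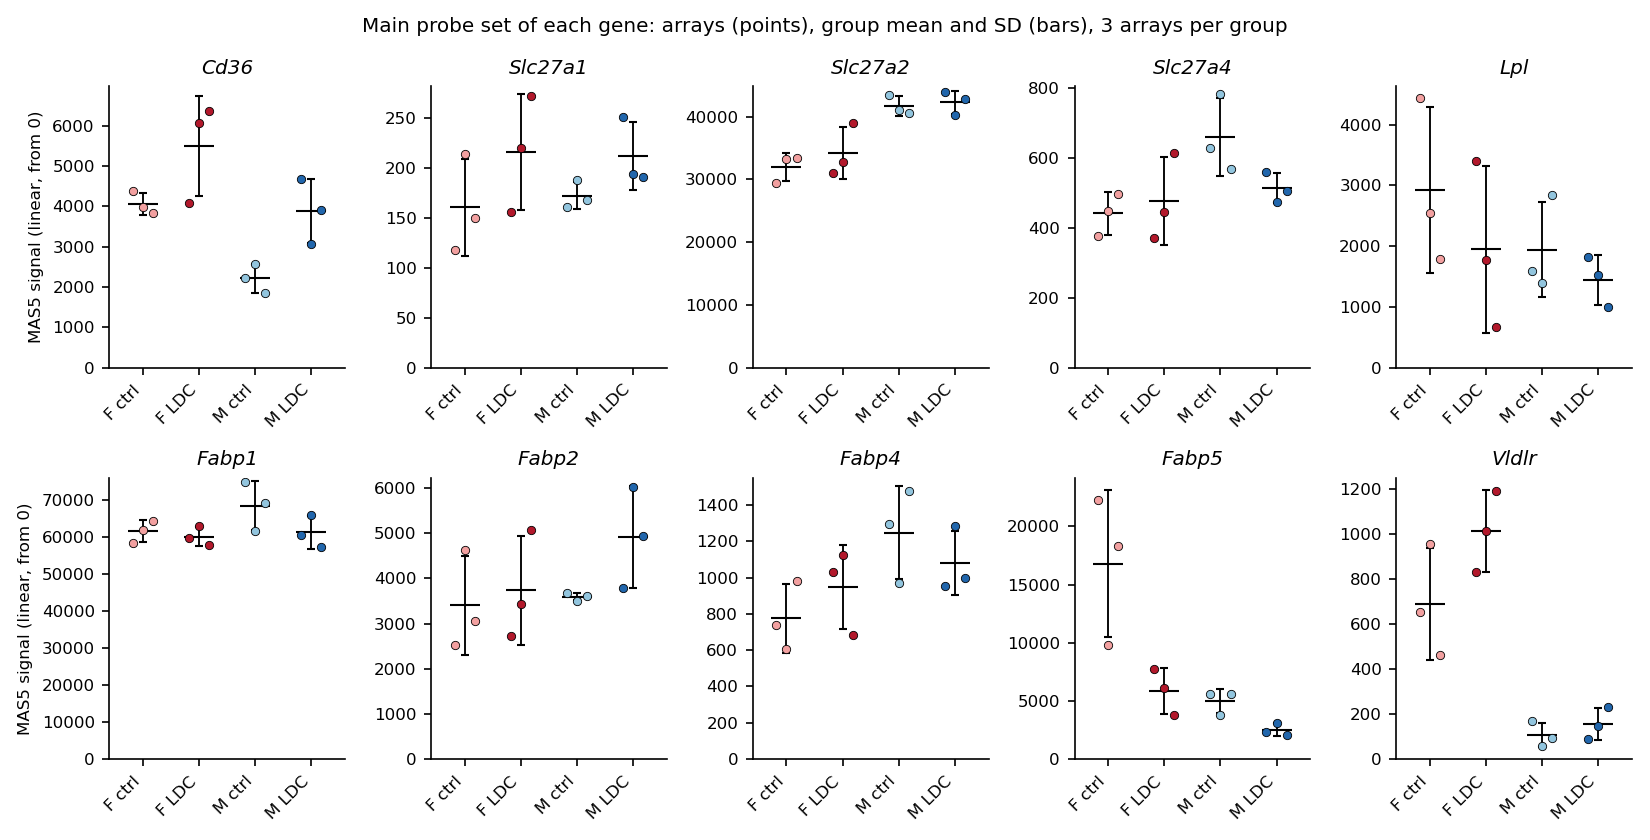
Signals of the main probe set of each of the 10 genes, 1 panel per gene, on a linear axis from 0 (MAS5 signal), for the control (F ctrl, M ctrl) and LDC (F LDC, M LDC) groups of each sex. Points are the 3 arrays of a group, and bars give the mean and SD. Vldlr is at or above 462.9 on every female array and at or below 232.5 on every male array, and the Fabp5 mean is 16800 in control females and 2520 in LDC males.

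Among the genes of membrane uptake, Cd36 read 4365, 3983 and 3844 on the control female arrays and 4068, 6051 and 6357 on the LDC female arrays (main probe set 1450883_a_at). It read 2229, 2571 and 1854 on the control male arrays and 4665, 3074 and 3901 on the LDC male arrays. The 3 control males were the lowest of the 12 arrays, the LDC males lay above all of them, and LDC female 1 stayed within the range of the control females while the other two LDC females were the highest arrays.

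The means ± SD of Cd36 (n = 3 each) were 5492 ± 1240 in LDC females, 4064 ± 270 in control females, 3880 ± 796 in LDC males and 2218 ± 359 in control males. LDC males and control females, the middle neighbours of this order, overlapped. Cd36 fell by 0.88 on the log2 scale (SE 0.18) from control females to control males, a 1.85-fold difference (limma adjusted p = 0.00741; 0.055 without the intensity trend). The log2 fold change with LDC was 0.80 (SE 0.18; 95% interval 0.41 to 1.18; limma adjusted p = 0.102) in males and 0.41 (SE 0.18; 0.03 to 0.79; adjusted p = 0.52) in females. Each LDC male also had a higher sum of 8 macrophage markers (19350 to 26780) than each control male (13140 to 13470). Among the LDC males, however, LDC male 2 had the highest sum (26780) and the lowest Cd36 signal (3074). LDC females 1, 2 and 3 had sums of 30420, 19760 and 6621, the reverse of their order in Cd36. The part of macrophages, which are known to express Cd36, was not tested. The mean of the 2 effects was 0.60 (limma adjusted p = 0.11), and 0.70 (adjusted p = 0.0373) without LDC female 1. Between LDC males and LDC females the value was -0.49 (limma adjusted p = 0.133), and -0.70 (adjusted p = 0.0329) without LDC female 1.

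The other Cd36 probe sets followed the main one closely over the 12 arrays, with r = 0.972 for 1423166_at and 0.861 for 1450884_at. In control mice both had lower signals in males, by log2 fold changes of -0.68 (limma adjusted p = 0.0743) and -0.76 (adjusted p = 0.174). On both, the 3 control males lay below the 3 control females. LDC males lay above control males on 1423166_at (1817 to 3216 against 1346 to 1771). These groups overlapped on 1450884_at (279.1 to 417.2 against 184.9 to 315.9). The LDC log2 fold changes in males were 0.57 (limma adjusted p = 0.386) and 0.49 (adjusted p = 0.646), both below the main value. Those in females were 0.41 (limma adjusted p = 0.609) and 0.24 (adjusted p = 0.879). The difference between the sexes in control mice was called on the main probe set only.

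Slc27a2 encodes FATP2, a very long-chain acyl-CoA synthetase and fatty acid transporter of liver and kidney. Its signals were 29480, 33270 and 33370 in control females, 31080, 32760 and 38960 in LDC females, 43470, 41000 and 40570 in control males, and 43860, 40270 and 42800 in LDC males. Each of the 6 male arrays exceeded each of the 6 female arrays, and the 2 groups of a sex overlapped. Slc27a2 was 1.30-fold higher in control males than in control females (log2 fold change 0.38, SE 0.09, limma adjusted p = 0.0171), and in LDC mice the value was 0.31 (SE 0.09; adjusted p = 0.0534). The LDC effects were near 0, at 0.02 (95% interval -0.17 to 0.21) in males and 0.09 (-0.10 to 0.28) in females. The call between the control sexes was lost with each array centred on its median (limma adjusted p = 0.122), without the intensity trend (0.124), without control female 1 (0.0669) and without control male 1 (0.0527). In LDC mice Slc27a2 passed under 5 of the alternatives, among them without LDC female 3 (limma adjusted p = 0.0159) and without control female 1 (0.0389).

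Slc27a4, which encodes FATP4, the transporter of intestine and skin, had means ± SD of 660.4 ± 111 in control males, 513.2 ± 42.6 in LDC males, 476.7 ± 125 in LDC females and 441 ± 60.7 in control females (n = 3 each). Control males, at 628.9, 784 and 568.2, lay above control females, at 376.7, 448.8 and 497.4, and above LDC males, at 559.2, 475.2 and 505.2. Neither difference passed: the log2 fold change was 0.58 between the control sexes (limma adjusted p = 0.106) and -0.35 with LDC in males (adjusted p = 0.593).

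Slc27a1 encodes FATP1, known from muscle and fat. Its main probe set had low signals, between 117.6 and 272 over all 12 arrays. The LDC males, at 251.3, 193.8 and 191.4, lay just above the control males, at 161.2, 187.6 and 168.2, with a log2 fold change of 0.29 (SE 0.30; limma adjusted p = 0.807). Its other probe set, 1435658_at, correlated with the main one at r = 0.227 and was lower in each LDC male (97.86 to 131.5) than in each LDC female (132 to 195.9), by a log2 fold change of -0.48 that did not pass (limma adjusted p = 0.463). The 2 probe sets of Slc27a1 thus gave no common pattern over the groups.

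**Figure D2:**
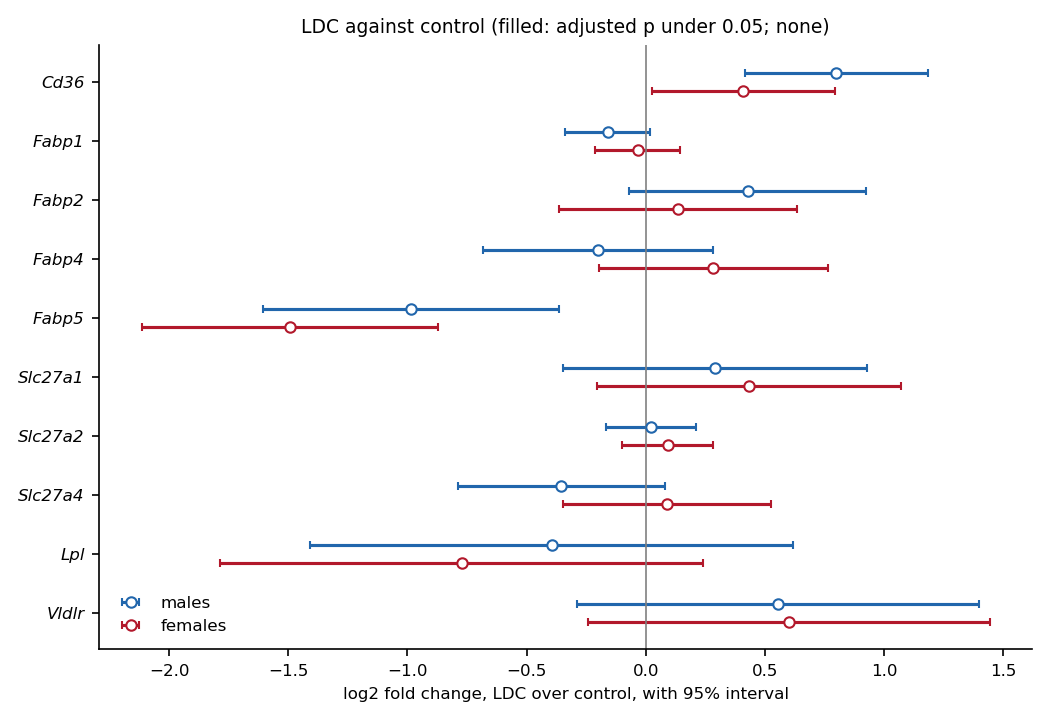
Log2 fold change of LDC over control for the main probe set of each gene, with the 95% interval of the limma fit, in males (blue) and females (red). Open points have an adjusted p of 0.05 or more, which holds for all 20 values shown. The intervals of Cd36 and Fabp5 lie away from 0 in both sexes before adjustment, and those of the other 8 genes include 0.

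Among the intracellular carriers, Fabp5 had the largest log2 fold change with LDC among the 10 main probe sets in each sex, a decrease that did not pass the adjustment. Its main probe set, 1416021_a_at, read 22250, 9835 and 18310 in control females and 7725, 6131 and 3784 in LDC females. It read 5623, 3801 and 5562 in control males and 2355, 3133 and 2072 in LDC males. All LDC arrays of a sex lay below all control arrays of that sex, control female 2 was the lowest control female, and LDC female 3 lay just below the lowest control male.

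The order of the Fabp5 means ± SD (n = 3 each) was 16800 ± 6350 in control females, 5880 ± 1980 in LDC females, 4995 ± 1030 in control males, and lowest, 2520 ± 549, in LDC males. LDC females and control males overlapped. The log2 fold change with LDC was -1.49 in females (SE 0.29; 95% interval -2.12 to -0.87; limma adjusted p = 0.0798) and -0.99 in males (SE 0.29; -1.61 to -0.36; adjusted p = 0.229), and their difference was 0.51 (limma adjusted p = 0.721). The mean of the 2 effects was -1.24 (SE 0.21) with a limma adjusted p of 0.0512, just short of the threshold. Without control female 2 the effect in females was -1.84 and passed (limma adjusted p = 0.00615), as did the mean effect (0.00559). The mean effect of Fabp5 also passed without LDC female 1 (limma adjusted p = 0.0373), with no filter on dim probe sets (0.0253) and with each array centred on its median (0.03).

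Between the sexes, Fabp5 fell by 1.69 on the log2 scale from control females to control males, a 3.23-fold difference (SE 0.29; limma adjusted p = 0.0024), and by 1.18 from LDC females to LDC males, 2.27-fold (SE 0.29; adjusted p = 0.0244). The call in control mice held with each of the 12 arrays left out in turn. The call in LDC mice was lost without LDC female 1 (limma adjusted p = 0.112), LDC female 2 (0.0911), LDC male 1 (0.0791) or LDC male 3 (0.104), and without the intensity trend (0.111).

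The other probe set of Fabp5, 1416022_at, followed the main one at r = 0.988. It read 9855, 3643 and 8696 in control females, 2851, 2356 and 1309 in LDC females, 1861, 1528 and 1874 in control males, and 969.3, 891.7 and 845.4 in LDC males. The groups of each sex were again apart, and the males were less spread than the females. Its log2 fold change with LDC was -1.72 in females (SE 0.32; limma adjusted p = 0.0589) and -0.96 in males (SE 0.32; adjusted p = 0.306). Between the sexes this Fabp5 probe set fell by 1.96 in control mice (limma adjusted p = 0.00152) and by 1.20 in LDC mice (adjusted p = 0.0359). The call in LDC mice held with 7 of the 12 arrays left out in turn and was lost without the intensity trend (limma adjusted p = 0.13).

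**Figure D3:**
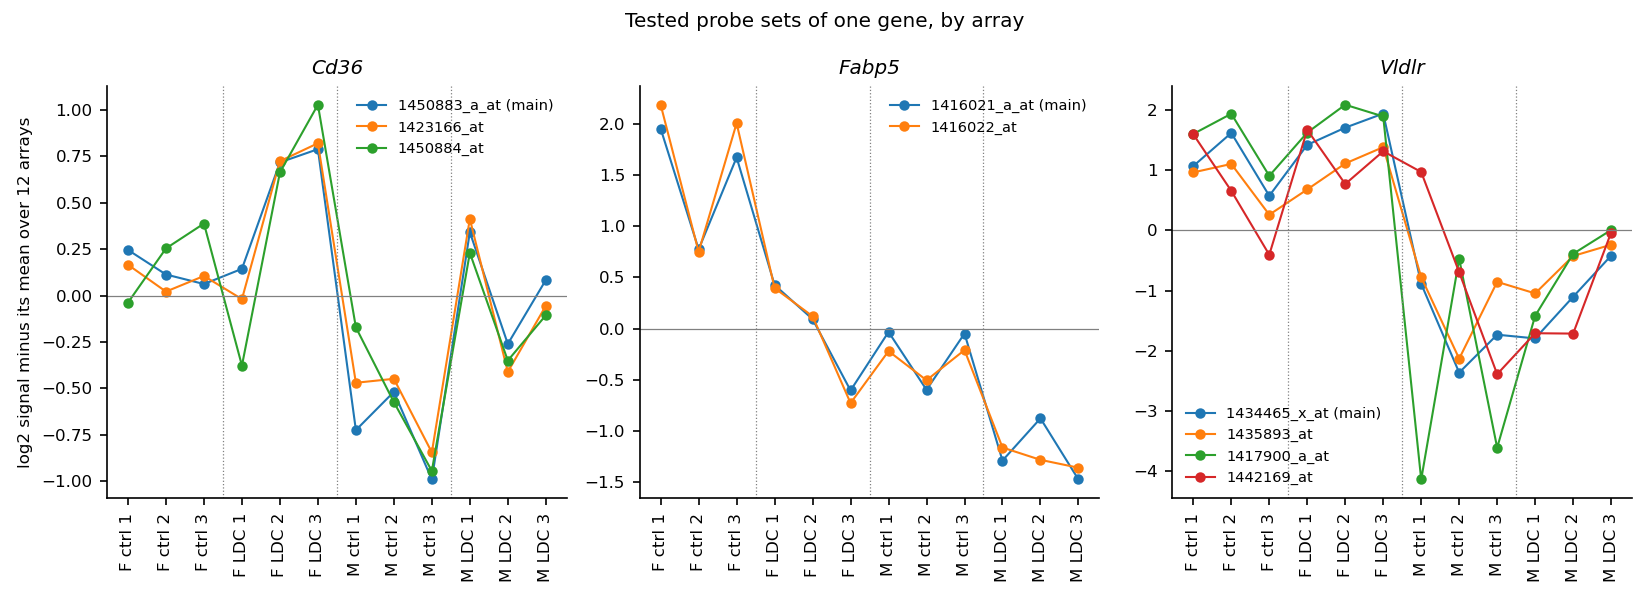
Log2 signal minus its mean over the 12 arrays (y axis) for each tested probe set of Cd36, Fabp5 and Vldlr, by array (x axis; dotted lines separate the groups). The probe sets of a gene follow each other on most arrays (r with the main probe set 0.861 and 0.972 for Cd36, 0.988 for Fabp5, 0.783 to 0.972 for Vldlr).

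Macrophages, which are known to express Fabp5, Lpl and Cd36, were followed by 8 markers (Adgre1, Cd68, Clec4f, Csf1r, Cd5l, Marco, Vsig4 and Timd4). Their summed signal was 13140 to 13470 in the control males, against 19350 to 26780 with LDC, and in females it was 15860 to 40740 in controls and 6621 to 30420 with LDC. None of the 8 was called in any of the 6 contrasts, with a smallest limma adjusted p of 0.0864, between the control sexes. Within each group of 3 females the order of the sums was that of Fabp5: control female 1 had the highest sum and the highest Fabp5 signal of its group, control female 2 the lowest of both, and LDC female 3, with a sum of 6621, the lowest of all 12 arrays, had the lowest Fabp5 signal of the females. Between the female groups the order did not hold, since LDC females 1 and 2 had higher sums (30420 and 19760) than control female 2 (15860) and lower Fabp5 signals (7725 and 6131 against 9835). Between the male groups the sum was higher on every LDC array than on every control array, whereas Fabp5 was lower. The part of these cells in the Fabp5 values was not tested.

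The sum of 6 neutrophil markers ranged from 3131 to 5896 in controls and 647.4 to 970.6 with LDC in females, and from 1120 to 1535 and 3045 to 3324 in males. Of the 4 that were tested, 3 were called lower with LDC in females and 1 was called higher with LDC in males. Their sum thus ran the same way as Fabp5 in females and the opposite way in males, and their part in the Fabp5 values was not tested.

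**Figure D4:**
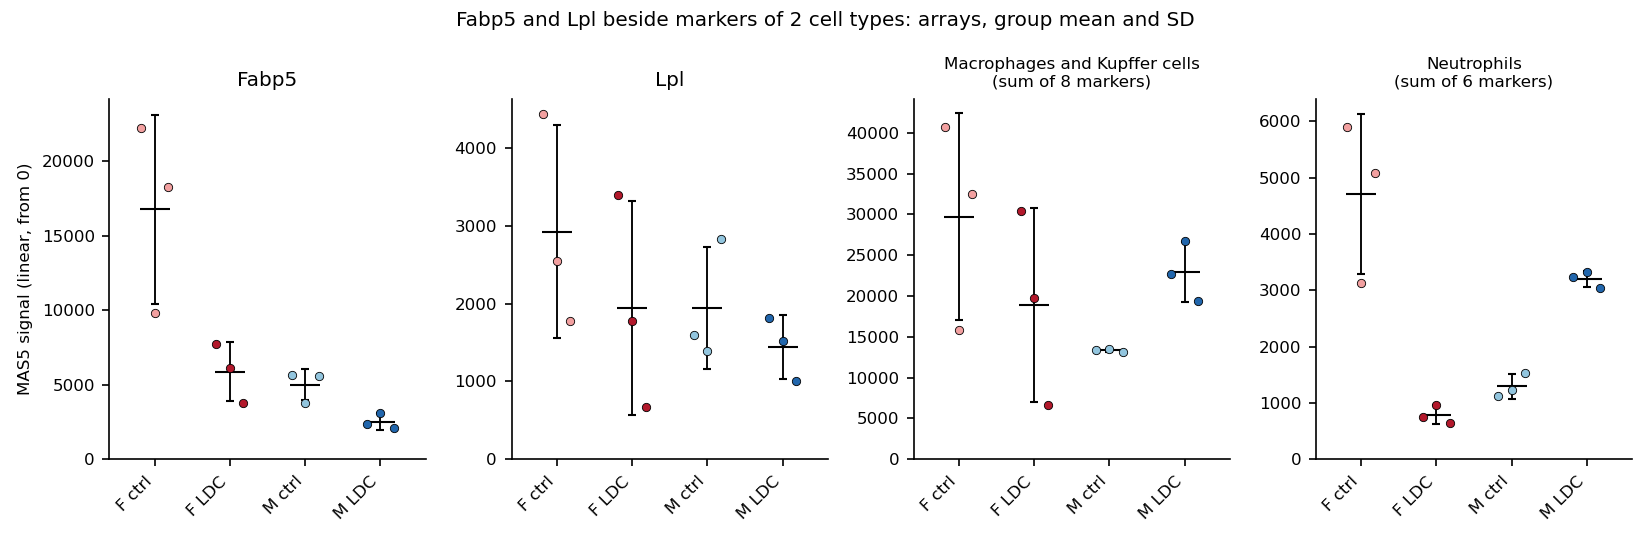
MAS5 signal of Fabp5 and Lpl (main probe sets) beside the summed signal of 8 markers of macrophages and Kupffer cells and of 6 neutrophil markers, on linear axes from 0, by group. Points are arrays, and bars give the mean and SD of 3 arrays. In LDC males both marker sums are above those of control males, while every Fabp5 signal is below.

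Fabp1, the abundant carrier of hepatocytes, was steady. Its means ± SD (n = 3 each) were 61530 ± 2960 in control females, 60100 ± 2600 in LDC females, 68470 ± 6650 in control males and 61190 ± 4440 in LDC males, and all groups overlapped. The log2 fold change with LDC was -0.16 in males (95% interval -0.34 to 0.02; limma adjusted p = 0.545) and -0.03 in females (-0.21 to 0.15; adjusted p = 0.941). Its other probe set, 1448764_a_at, ran with the main one at r = 0.505 only. With LDC in males it had a log2 fold change of 0.07 (limma adjusted p = 0.836), opposite in sign to the main one. This probe set read 60210 to 63110 in LDC males and 55890 to 57920 in LDC females without overlap. That log2 fold change of 0.11 did not pass (limma adjusted p = 0.55).

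Fabp2 read 2527, 4619 and 3059 in control females and 2718, 3435 and 5063 in LDC females. In control males it was tight, at 3668, 3508 and 3604, and each of the LDC males was higher, at 3778, 6033 and 4950. The spread within the other 3 groups of Fabp2 exceeded this gap, and its log2 fold change in males was 0.43 (SE 0.23; limma adjusted p = 0.567).

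Fabp4 was read by 4 probe sets, of which 3 were tested. The main one, 1417023_a_at, had means ± SD (n = 3 each) of 1247 ± 258 in control males, 1079 ± 177 in LDC males, 945.6 ± 231 in LDC females and 774.9 ± 191 in control females, with neighbours in this order overlapping. Its log2 fold change between control males and females was 0.69 (SE 0.22; limma adjusted p = 0.0795), and 0.88 (adjusted p = 0.0409) without control female 3, whose signal of 981.9 was the highest of that group. The other tested Fabp4 probe sets ran with the main one at r = 0.552 and 0.338 only and were called in no contrast. The fourth, 1424155_at, was too dim to test, with signals of 5.683 to 78.19, and ran at r = -0.493. The 5 adipocyte markers summed to 427.5 to 598.6 in control females and 495.2 to 686.8 in control males, which overlap. The 8 macrophage markers summed to 15860 to 40740 in control females and to 13140 to 13470 in control males, lower in males where Fabp4 was higher. The part of either cell type in the Fabp4 values was not tested.

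On the lipoprotein side, Vldlr had the largest difference between the sexes of the 10 genes. Its main probe set, 1434465_x_at, read 651.8, 954 and 462.9 in control females and 831.9, 1014 and 1192 in LDC females. It read 168.1, 60.57 and 93.69 in control males and 89.75, 144.9 and 232.5 in LDC males. Every female array lay above every male array, and within each sex the LDC and control arrays overlapped.

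Vldlr fell by 2.75 on the log2 scale from control females to control males, a 6.71-fold difference (SE 0.39; 95% interval -3.59 to -1.90; limma adjusted p = 0.000623). From LDC females to LDC males it fell by 2.79, 6.93-fold (SE 0.39; -3.63 to -1.95; adjusted p = 0.000511). Both calls of the main probe set held with each of the 12 arrays left out in turn. The log2 fold changes with LDC were 0.60 in females (95% interval -0.24 to 1.44; limma adjusted p = 0.7) and 0.56 in males (-0.29 to 1.40; adjusted p = 0.686), so both intervals included 0.

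The suffix of this Vldlr probe set marks probes that can also match other transcripts, so the other probe sets of the gene matter. Of the 3 others that were tested, 1435893_at fell by 2.03 from control females to control males (limma adjusted p = 0.00925) and by 1.63 from LDC females to LDC males (adjusted p = 0.0349). That call in LDC mice was lost with 6 of the 12 arrays left out in turn, with no filter (limma adjusted p = 0.0591), without the intensity trend (0.0594) and with the replicate block (0.056). The probe set 1417900_a_at was called in control mice (adjusted p = 0.00308 with limma), but control males 1 and 3, at 5.814 and 8.383, lay far below the filter's signal of 48.6, so the size of its log2 fold change, -4.22, depends on those dim signals and was -2.55 with an offset of 32 added to the signals. In LDC mice its value was -2.47 (limma adjusted p = 0.0684), and it passed with the offset (0.0056). On both probe sets the 6 female arrays were above the 6 male arrays, as on the main one. The probe set 1442169_at was lower in males in both comparisons but passed in neither.

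The mean signal of 1417900_a_at of Vldlr was 29.27 in control males and 72.91 with LDC (log2 fold change 2.14; SE 0.75; limma adjusted p = 0.339). The fold change was 0.90 (limma adjusted p = 0.444) with an offset of 32 and 3.27 (adjusted p = 0.0268) when control male 2 was left out, so neither its size nor its call was stable. The 2 Vldlr probe sets too dim to test, 1438258_at and 1451156_s_at, had signals of 4.66 to 160.7 over the arrays. Macrophage marker sums were apart between the control sexes (15860 to 40740 in females, 13140 to 13470 in males) and overlapped between the LDC sexes (6621 to 30420 and 19350 to 26780). The Vldlr difference on the main probe set was -2.75 in control mice and -2.79 in LDC mice. The part of macrophages in the Vldlr values was not tested.

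Markers of 2 other cell types and 1 marker of intestine were called between the sexes. Of 3 intestine markers only Lgals4 was bright enough to test, and its signals were higher in males. Its log2 fold change was 1.54 in LDC mice (limma adjusted p = 0.0222) and 1.21 in control mice (adjusted p = 0.0631). Of 7 stellate cell and fibroblast markers, Lrat (limma adjusted p = 0.00175) and Pdgfrb (0.0359) were lower in control males than in control females, and 0 of the 7 were called in LDC mice. Their sum was 16690 to 27350 in control females against 11530 to 15010 in control males, and 17200 to 19110 against 14910 to 15660 in LDC mice, lower in males as Vldlr, Fabp5 and Cd36 were. Of 4 neutrophil markers tested, 3 were called lower in males in control mice and 3 were called higher in males in LDC mice. Vldlr and Fabp5 were lower in males in both. The part of these cells in the differences between the sexes was not tested.

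**Figure D5:**
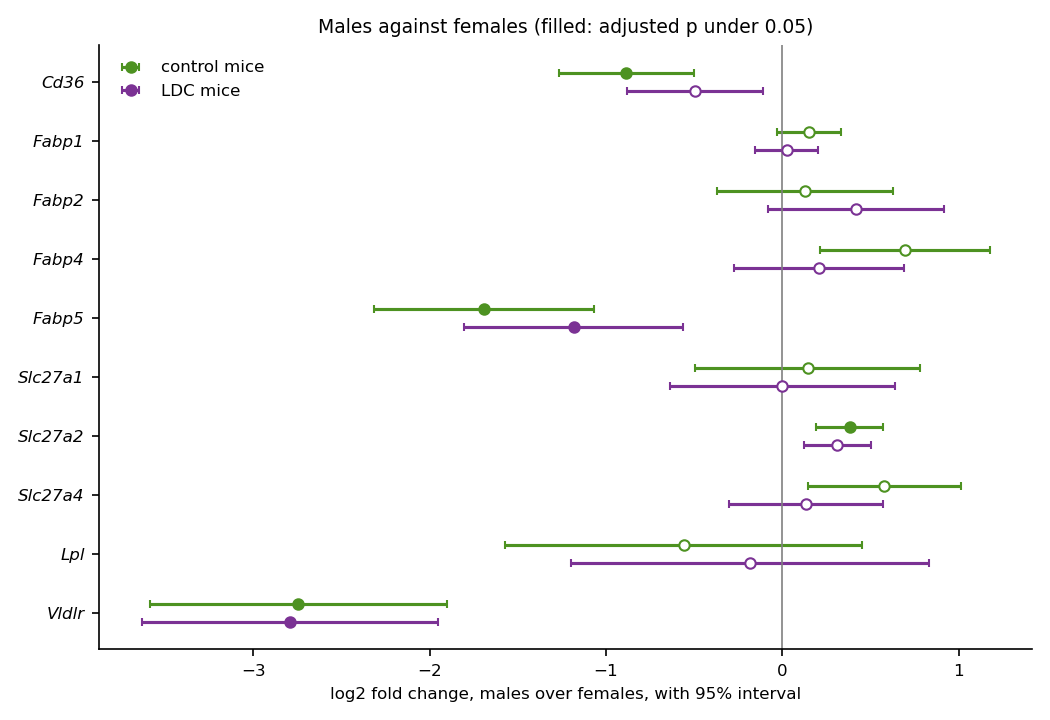
Log2 fold change of males over females for the main probe set of each gene, with the 95% interval of the limma fit, in control mice (green) and LDC mice (purple). Filled points have an adjusted p under 0.05: Cd36, Fabp5, Slc27a2 and Vldlr in control mice, and Fabp5 and Vldlr in LDC mice. The values of Vldlr are -2.75 and -2.79, and the open points lie between -0.56 and 0.69.

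Lpl, the lipase, had the largest SE of the 10 main probe sets (0.47 on the log2 scale). It read 4442, 2551 and 1782 in control females, 3405, 1773 and 671.5 in LDC females, 1598, 1390 and 2839 in control males, and 1815, 1526 and 999.8 in LDC males. All 4 groups overlapped, and the spread among the 3 LDC females was wider than any difference between the group means. The log2 fold change of Lpl with LDC was -0.77 in females (95% interval -1.79 to 0.24; limma adjusted p = 0.672) and -0.40 in males (-1.41 to 0.62; adjusted p = 0.84), so each interval reached beyond a 2-fold decrease. The other Lpl probe set, 1431056_a_at, ran with the main one at r = 0.846 and was not called in any contrast. The array with the highest macrophage sum in each group of females, control female 1 and LDC female 1, also had the highest Lpl signal, and LDC female 3 had the lowest of both. Control female 3, however, had the lowest Lpl signal of its group (1782) beside a sum of 32520, and control female 2 read 2551 beside a sum of 15860. In males the sum was higher on every LDC array, while the mean Lpl signal was 1447 with LDC and 1942 in controls. The part of these cells in the Lpl values was not tested.

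The pathway around the 10 genes was followed through 33 further genes of fatty acid activation, acyl-CoA binding, lipoprotein lipolysis and lipoprotein receptors. Of these 26 have a named probe set and 22 were tested, and the others were not analysed here. With LDC 0 of 22 were called in males, in females, in the difference and in the mean, with 4, 2, 2 and 3 at an unadjusted p under 0.05. In males the smallest p-values belonged to Acsl3, an acyl-CoA synthetase of lipid droplets (log2 fold change 0.55; limma adjusted p = 0.184), Lipg, endothelial lipase (-0.86; adjusted p = 0.344), Fabp7, the brain carrier (1.00; adjusted p = 0.372), and Dbi, an acyl-CoA binding protein (-0.15; adjusted p = 0.444). In females they belonged to Lrp1, a remnant receptor (-0.25; limma adjusted p = 0.397), and Angptl4, a secreted inhibitor of LPL (-0.97; adjusted p = 0.478).

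Between the sexes 3 of the 22 pathway genes were called in control mice and the same 3 in LDC mice. Over all probe sets 7.73% and 6.29% were called in these comparisons. Angptl4 was higher in males, with means ± SD (n = 3 each) of 2148 ± 1270 in control females and 6258 ± 576 in control males (log2 fold change 1.77; limma adjusted p = 0.0116) and of 974.7 ± 353 in LDC females and 6555 ± 1440 in LDC males (2.79; adjusted p = 0.00044). Acsl3 was lower in males, at 1593 ± 111 in control females and 455.2 ± 51.3 in control males (-1.81; limma adjusted p = 4.64e-06), with a value of -1.42 in LDC mice (adjusted p = 4.73e-05). Acsl5, an acyl-CoA synthetase of liver and intestine, was also lower in males, with log2 fold changes of -0.45 in control mice (limma adjusted p = 0.0153) and -0.53 in LDC mice (adjusted p = 0.00568). The median log2 fold change of the 22 between the control sexes was 0.03, beside 0.13 for the 10 members and -0.02 over all probe sets.

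Genes of most similar pattern were sought by Pearson r of log2 signal over the 12 arrays among 12819 other named genes, for the 4 members whose group means ranged most widely. The 12 arrays share the 4 group means, so r reflects differences between groups as well as between mice, and it is given as a description. Closest to Vldlr were Zfhx4 (r = 0.986), Atp7b (0.975) and Smoc1 (0.975). Closest to Fabp5 were Inhba (0.937), Myh9 (0.936) and Ets2 (0.934), and closest to Cd36 were Nr1i3, the nuclear receptor CAR (0.956), Serpina6 (0.938) and Slc26a2 (0.933). Closest to Lpl were Ampd3 (0.899), Rims4 (0.871) and Plekhb2 (0.853), the weakest likenesses of the 4 members. Among the members themselves the closest pair was Slc27a2 and Slc27a4 (r = 0.773), followed by Cd36 and Vldlr (0.72), and the most opposed was Fabp5 and Slc27a2 (-0.827).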

How the data were processed

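Liver RNA of 12 mice was measured on Affymetrix mouse genome arrays. The authors deposited linear MAS5 signal intensities, made in GeneSpring, with 1 value for every probe set on every array. The arrays came scaled (trimming 2% at each end), and no detection calls were used. MAS5 subtracts mismatch probes, which makes dim signals variable. All value columns matched a label. Of 45101 probe sets, 64 controls were left out, and 34958 name 1 gene, 932 several and 9211 none (2016 annotation, symbols updated by gene ID to the GRCm38.p6 table for 34754).

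The intensities were log2 transformed. The dimmest probe sets, with a mean below the 40th percentile (signal 48.6), were left out, and the other 27022 were fitted with limma 3.58.1 in R 4.3.3, with 1 mean per group, 8 residual degrees of freedom and eBayes with a trend. The 6 contrasts were LDC against control in each sex, their difference and mean, and males against females in control and in LDC mice. P-values were adjusted over all 27022 by Benjamini and Hochberg and called under 0.05. The arrays' number, 3 per group, limits the precision.

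The members and lists were chosen with earlier results of these data known. All 10 members were named, with pathway genes called in a contrast or up to 4 with the smallest p, and the 3 genes closest to each of 4 members. Alternatives covered filters, normalization, an offset of 32, the variance model, array weights, 1 probe set per gene, each sex alone, the t-test, a replicate block and each array left out. The fit was tested on simulated data. Promoters are RefSeq entries, found for 7 of 10 members and not for Fabp4, Fabp5 and Lpl. Plots used matplotlib 3.10.9 (Python 3.11.15).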

Additional observations from a re-analysis of the deposited data

Results flagged for a closer look

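The LDC effects of the sexes differed for 3 of the neutrophil markers that stand beside Fabp5, by the test of the male minus the female effect. The log2 difference was 4.60 for S100a8 (limma adjusted p = 1.47e-05), 4.05 for S100a9 (adjusted p = 0.00228) and 2.99 for Ngp (adjusted p = 0.00949), in each case from lower signals with LDC in females and higher ones in males.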

How the results depend on the processing

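No value of the members reversed. Of 1380 compared, 35 changed sign with neither side past the threshold, 16 lost a call and 18 gained one. The mean LDC effect called 1 member gene, Fabp5, in place of 0 with no filter, with filters at the 20th and 60th percentile, with median centring, with log2(signal + 32) and with the replicate block, and LDC in females called 1 with median centring. Between the sexes the counts were 2 in control mice and 1 in LDC mice without a trend in eBayes. With Student's t-test after Benjamini-Hochberg they were 0 and 0. Leaving out 1 array gave 0 to 1 genes for LDC in females, 0 to 2 for the mean effect, 3 to 5 between the control sexes and 1 to 3 between the LDC sexes. The cause was not tested. The probe set 1416022_at of Fabp5 passed in LDC females with no filter (adjusted p = 0.0364) and in LDC males only with each sex fitted on its own arrays (0.0152). Over all probe sets the count of 75 for LDC in males was 1 without the trend, 48 with the replicate block and 0 with the t-test, and ranged from 17 to 103 with 1 array left out. For LDC in females the 33 became 13 without the trend, 11 with each sex alone, 0 with the t-test and 15 to 106 with 1 array left out. The 48 of the difference ranged from 10 to 78 over all settings, and the 12 of the mean from 0 to 39. Between the sexes the 2088 in control mice ranged from 7 (t-test) to 2287 and the 1701 in LDC mice from 325 (t-test) to 2309. Arrays with the same replicate number did not deviate together (r from -0.028 to 0.059 over 18 pairs). These correlations cannot show whether any mice shared a litter or a cage, which the labels do not give. With the replicate block the member genes called were otherwise unchanged in number, 0 for LDC in each sex and 4 and 2 between the sexes. With 3 mice per group the precision is limited, and MAS5 signals near the filter carry little information.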

Other observations

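LDC male 3 stood apart in the summed signal of 3 skeletal muscle markers, at 1170 beside 52.78 to 308.1 on the other 11 arrays. Most of this sum was Acta1, at 814.6, beside 131.1 for Ckm and 223.9 for Myh4, which was below the test's filter. On that array the main probe sets of Lpl and Slc27a1, both known from muscle, read 999.8 and 191.4, the lowest of each in its group. The other Lpl probe set, 1431056_a_at, read 351.3 there, the highest of its group, and the other Slc27a1 probe set, 1435658_at, read 124, the middle value.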
